A study of Mus musculus with 12 samples.

Results

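The genes described here encode the pre-B cell receptor, its signaling subunits and its adaptor. The 8 members are Ighm, Igkc, Igll1, Vpreb1, Vpreb3, Cd79a, Cd79b and Blnk. They were taken by name from a table of 32285 genes, and each name had a single entry. RNA was sequenced in bulk from 12 libraries of sorted bone marrow progenitors of WT C57BL6/J mice, with 3 replicates in each of 4 groups. The groups were Ly6d- common lymphoid progenitors (CLPs) at 1 month of age (1MO), Ly6d- CLPs at 3 months (3MO), and Flk2+ multipotent progenitors (MPPs) at the same 2 ages. No transgene, deletion or treatment was given for any group. The study asked how bone marrow progenitors that feed the thymus change between these ages. Marrow was depleted of cells carrying lineage antigens, among them B220 of B cells, before sorting, and CLPs with surface Ly6d, which are biased to the B lineage, were left out by the gate. Nothing in the labels says which mice gave which library, so a p-value measures the spread between these libraries.

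A B cell precursor first rearranges its heavy chain gene. The heavy chain μ, whose constant part is encoded by Ighm, is brought to the surface by a surrogate light chain of λ5 (Igll1) and VpreB (Vpreb1 and its near copy Vpreb2), together with the signaling pair Igα (Cd79a) and Igβ (Cd79b). Blnk is the adaptor that couples the receptor and its kinase Syk to downstream enzymes, and later the κ light chain, with the constant part Igkc, takes the place of the surrogate chain. Transcripts over Ighm can also arise from the heavy chain locus before it is rearranged, and reads counted over the constant exons do not tell the 2 kinds apart.

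Levels are given as CPM, that is, counts scaled to library size, here the summed counts of the genes tested and adjusted by TMM (a trimmed mean of log ratios between libraries). The total of the estimated counts was 8889083 to 20677785 per library, so the 3 counts used here as a limit for a level of 0 correspond to between 0.148 and 0.329 CPM, which covers counting error only. The sorted identities were read from 10 markers of each cell type, with calls at an edgeR adjusted p under 0.05. Of the CLP markers, 4 were called higher and 2 lower in CLPs than in MPPs at 1MO. At 3MO these counts were 4 and 3. Of the MPP markers, 0 were called higher in CLPs, and 6 were lower at 1MO and 7 at 3MO. Flt3, Cd27, Ly6a, Kit and Cd34 were on both lists. Over all genes tested, 2.57% were higher and 2.81% lower at 1MO, and 2.73% and 3.34% at 3MO. Il7r, the interleukin-7 receptor gene of lymphoid progenitors, was at 299 to 402 CPM in CLPs and at 5.24 to 18.5 CPM in MPPs. Hlf, a stem and multipotent progenitor factor, was lower in CLPs than in MPPs, with log2 fold changes of -3.91 at 1MO and -3.69 at 3MO.

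The surrogate light chain genes and Cd79a are classical targets of the B lineage factors EBF1 and E2A. These genes were among the lowest members, so the sequences before their RefSeq starts are shown. RefSeq windows on GRCm38.p6 were matched for 5 of the 8 members: Igll1, Vpreb1, Vpreb3, Cd79a and Blnk. For Vpreb1 and Vpreb3 the RefSeq start lies inside the GENCODE gene bounds given below. By those bounds, their windows lie within the gene and not upstream of it. The 250 bases before the annotated start were searched on both strands for CAGGTG, the E-box bound by E2A, for the palindromic EBF1 motif, and for ATGCAAAT, the octamer of immunoglobulin promoters. Capitals mark a match to any of the 3 in either orientation, and bases inside exons of coding transcripts are left out, which removed the whole Blnk window and the last 116 bases of the Cd79a window.
Igll1, chr16:16863986-16864235, minus strand: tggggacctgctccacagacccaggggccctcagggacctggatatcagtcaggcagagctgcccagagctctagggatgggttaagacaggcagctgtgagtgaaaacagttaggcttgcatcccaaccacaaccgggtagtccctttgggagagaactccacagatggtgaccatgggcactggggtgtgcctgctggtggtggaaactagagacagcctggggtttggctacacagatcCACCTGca
Vpreb1, chr16:16869256-16869505, minus strand: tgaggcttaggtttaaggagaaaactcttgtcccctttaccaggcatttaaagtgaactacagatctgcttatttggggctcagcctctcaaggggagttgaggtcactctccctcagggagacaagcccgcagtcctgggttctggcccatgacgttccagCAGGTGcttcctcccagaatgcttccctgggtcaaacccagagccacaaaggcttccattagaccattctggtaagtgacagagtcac
Vpreb3, chr10:75948050-75948299, plus strand: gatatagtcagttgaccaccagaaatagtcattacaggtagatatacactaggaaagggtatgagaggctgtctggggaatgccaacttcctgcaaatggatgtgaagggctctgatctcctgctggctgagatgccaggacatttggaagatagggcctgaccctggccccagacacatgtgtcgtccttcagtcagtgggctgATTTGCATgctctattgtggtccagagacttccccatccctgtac
Cd79a, chr7:24897247-24897380, plus strand: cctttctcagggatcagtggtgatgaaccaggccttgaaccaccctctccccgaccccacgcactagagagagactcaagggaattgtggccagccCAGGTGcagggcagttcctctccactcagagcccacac
An E-box was found in 4 of these 5 windows, beginning 8 bases before the start in Igll1, 88 in Vpreb1, 154 in Cd79a and 160 in Blnk. It was present in 17.2% of all 32851 windows of this length. The octamer was found in Vpreb3, 45 bases before the start, and in Blnk, 130 bases before it, against 1.60% of all windows. The EBF1 motif, as a single exact pattern, was in none of the 5 windows and in 0.779% of all windows. A match of letters is a description of the window and does not show a bound site.

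Igll1, which encodes λ5, lies at chr16:16860671-16863985 on the minus strand of GRCm38. It was listed at 0 in 11 of the 12 libraries. The exception was replicate 1 of 3MO CLPs, with 0.387 CPM from an estimated count that rounds to 4. No fold is given, since every group was at or near the limit.

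Vpreb1 lies at chr16:16868403-16870843 on the minus strand, where its exons overlap those of Top3b on the opposite strand. Its values were 0.883, 1.13 and 0.617 CPM in 1MO CLPs and 0, 0.918 and 0 CPM in 3MO CLPs. In MPPs they were 0, 0.0971 and 0.165 CPM at 1MO and 0, 0.0637 and 0.504 CPM at 3MO. The 3 libraries of 1MO CLPs were above all 1MO MPPs, while a single 3MO CLP library carried the whole signal of its group. The log2 fold change between CLPs and MPPs at 1MO was 3.05 (standard error 1.91, edgeR adjusted p = 0.53), and between the ages in CLPs it was -1.41 (standard error 1.73, edgeR adjusted p = 0.96). The age difference in CLPs ranged from -6.57 to -0.87 with 1 library left out. At 3MO the difference between CLPs and MPPs went from 0.72 to -4.44 on leaving out replicate 2 of 3MO CLPs. The libraries were made with a directional kit, but the strand setting of the counting is not given in the sources used here, so it is not known whether reads of Top3b were kept apart from those of Vpreb1 where the exons overlap.

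Vpreb2 (chr16:17980428-17981273, plus strand) shares 417 of 426 coding bases with Vpreb1, or 97.9%, and the longest identical run is 196 bases. The stretch of 90 coding bases that differs most is shown to make clear how few positions separate reads of the copies. It runs from coding base 298 to 387 in both, and capitals mark the 5 differences.
Vpreb1: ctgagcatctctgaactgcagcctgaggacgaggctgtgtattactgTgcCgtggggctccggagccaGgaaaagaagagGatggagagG
Vpreb2: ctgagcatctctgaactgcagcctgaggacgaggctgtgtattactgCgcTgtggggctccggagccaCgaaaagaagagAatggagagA
Vpreb2 was at 0.0889, 0.743 and 2.75 CPM in 1MO CLPs and at 0 in each of the other 9 libraries. It did not pass the filter on low counts. The division of reads between the copies is uncertain, so their sum is also given. Together Vpreb1 and Vpreb2 were at 0.972, 1.87 and 3.37 CPM in 1MO CLPs and at 0, 0.918 and 0 CPM in 3MO CLPs. All 3 summed values of 1MO CLPs were above the 9 others, by a narrow margin over replicate 2 of 3MO CLPs.

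Vpreb3, a VpreB-like protein that associates with heavy and light chains inside the cell, lies at chr10:75943057-75949657 on the plus strand. It had a count in 3 of the 12 libraries, at 0.248 CPM in replicate 2 of 1MO CLPs, 0.639 CPM in replicate 2 of 3MO CLPs and 0.165 CPM in replicate 1 of 1MO MPPs. Igll1 and Vpreb3 did not pass the filter, which left 6 members for testing.

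Ighm was the most abundant member in every group. It lies at chr12:113418558-113422730 on the minus strand, within the heavy chain locus. Ighm was at 740, 850 and 830 CPM in 1MO CLPs and at 800, 774 and 675 CPM in 3MO CLPs. In MPPs it was at 228, 213 and 229 CPM at 1MO and at 213, 314 and 236 CPM at 3MO. Every CLP library was above every MPP library, and the ages overlapped within each cell type. The log2 fold change between CLPs and MPPs was 1.85 at 1MO (standard error 0.16, edgeR adjusted p = 6.12e-06) and 1.56 at 3MO (standard error 0.16, edgeR adjusted p = 3.15e-05), and the ratios of the means were 3.61 and 2.95. Between 1MO and 3MO it was -0.11 in CLPs, with a 95% interval from -0.44 to 0.23, and 0.19 in MPPs, with an interval from -0.15 to 0.52. In bulk RNA, more cells with the transcript and more transcript per cell cannot be told apart.

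Ighd, the δ constant gene that is transcribed together with Ighm, was also higher in CLPs. Its level was 31.3, 21.5 and 23.6 CPM in 1MO CLPs, 34.4, 29.98 and 28.8 CPM in 3MO CLPs, 6.78, 7.70 and 4.07 CPM in 1MO MPPs and 2.33, 7.70 and 4.46 CPM in 3MO MPPs. Ighd was higher in CLPs at both ages, by log2 fold changes of 2.05 (edgeR adjusted p = 0.0043) and 2.67 (edgeR adjusted p = 0.00072). Ighm took 95.8% to 97.5% of the counts summed over 8 heavy chain constant genes in CLPs and 89.3% to 98.0% in MPPs.

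The variable gene segments gave far fewer counts than the constant gene. The 185 Ighv entries together reached 4.55 to 7.98 CPM in 1MO CLPs, 0 to 5.77 CPM in 3MO CLPs, 2.35 to 5.74 CPM in 1MO MPPs and 6.72 to 11.9 CPM in 3MO MPPs. The joining segment entries of all 3 loci were at 0 in the 12 libraries, including the MPP libraries, all of which held counts of Igkc and of κ variable segments. These zeros therefore do not show whether rearranged transcripts were present. Between 0 and 17 Ighv entries had a count in a library. Ighv1-77 and Ighv1-74, chosen after their values were seen, had the highest summed counts, and both had counts in MPPs as well as CLPs. Many variable segments are close copies of each other, so counts of single entries are uncertain.

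Igkc went the other way: it was nearly absent from CLPs and present in every MPP library. Igkc, the κ constant gene at chr6:70726435-70726966 on the plus strand, was at 0 in the 3 libraries of 1MO CLPs and at 0.101, 0 and 0.566 CPM in 3MO CLPs. In MPPs it was at 0.833, 5.99 and 0.914 CPM at 1MO and at 4.05, 9.30 and 10.97 CPM at 3MO. No MPP library was below any CLP library of either age. Against the limit of 3 counts per library, the mean of 1MO MPPs was at least 12.7-fold higher than that of 1MO CLPs. Replicate 2 carried most of that mean, and without it the bound was 4.31-fold. At 3MO the mean of CLPs, 0.222 CPM, was itself under this limit, and no ratio is given. The edgeR fit gave log2 fold changes of CLPs relative to MPPs of -8.13 at 1MO (standard error 1.81, adjusted p = 0.017) and -5.19 at 3MO (standard error 1.36, adjusted p = 0.038), and the size of both depends on the prior count that edgeR adds.

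The Igkc calls rested on few libraries. At 1MO the edgeR adjusted p rose to 0.065 without replicate 2 of 1MO CLPs, 0.054 without replicate 3 of 1MO CLPs and 0.063 without replicate 2 of 1MO MPPs. At 3MO it rose to 0.12 without replicate 1 of 3MO CLPs, 0.082 without replicate 2 of 3MO CLPs, 0.0997 without replicate 2 of 3MO MPPs and 0.11 without replicate 3 of 3MO MPPs. The sign held in every one of these fits. Igkc was higher at 3MO than at 1MO by 1.66 on the log2 scale in MPPs (standard error 1.13, edgeR adjusted p = 1), where the ages overlapped. In CLPs the age difference was 4.60 (standard error 1.86, unadjusted p = 0.028, edgeR adjusted p = 0.80), from a total of 8 rounded counts at 3MO. With 1 library left out, the age difference ranged from 1.23 to 3.23 in MPPs and from 2.42 to 5.19 in CLPs.

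Beside Igkc, the κ variable segments and transcripts of antibody secretion were read. The 160 Igkv entries together were at 0.0942 to 0.436 CPM in 1MO CLPs, 0 to 2.28 CPM in 3MO CLPs, 1.91 to 2.84 CPM in 1MO MPPs and 4.99 to 8.05 CPM in 3MO MPPs. The leading entry differed from library to library in 3MO MPPs: Igkv6-23, chosen after its values were seen, was at 4.27 CPM in replicate 2 and at 0 in replicate 3, where Igkv4-68, chosen in the same way, was at 3.06 CPM. Igha, the constant gene of IgA, was at 1.37, 17.2 and 0.548 CPM in 1MO MPPs, at 17.0, 16.2 and 0 CPM in 3MO MPPs, and at no more than 0.0882 CPM in CLPs. The third 3MO MPP library overlapped CLPs at 0. The mean of 3MO MPPs was at least 47.0-fold higher than that of 3MO CLPs, against the limit of 3 counts per library, and 34.4-fold to 70.5-fold with any 1 of the 3MO MPP libraries left out. edgeR called Igha lower in CLPs at 3MO (adjusted p = 0.028), with an adjusted p of 0.077 to 0.089 without any 1 of the 3MO CLP libraries and 0.062 without replicate 2 of 3MO MPPs. Jchain, which links IgA and IgM into polymers, was at 3.28, 3.75 and 1.08 CPM in 1MO MPPs and 8.55, 5.34 and 1.26 CPM in 3MO MPPs, against 0 to 1.05 CPM in CLPs (edgeR adjusted p = 0.48 at 1MO and 0.19 at 3MO). DESeq2 called Jchain at 3MO (adjusted p = 0.037) and Igha at 1MO (adjusted p = 0.043), where edgeR gave 0.058 for Igha. The groups did not overlap for Jchain at either age or for Igha at 1MO.

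**Figure D1:**
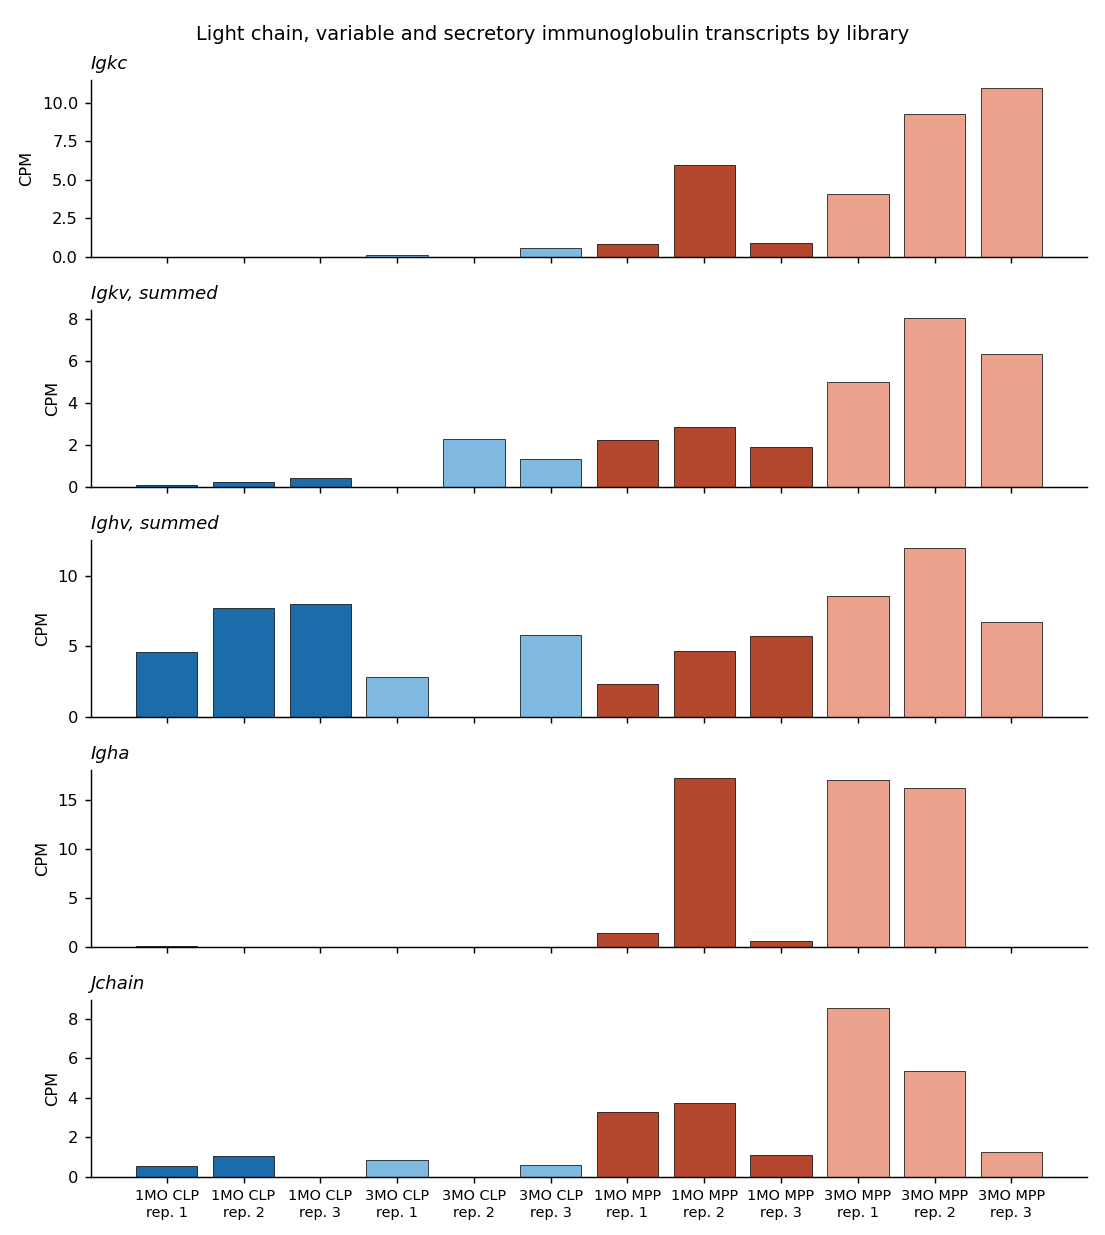
Level in CPM (linear axes from 0) of Igkc, the summed Igkv and Ighv entries, Igha and Jchain in each of the 12 libraries; each bar is 1 library, blue for CLPs and red for MPPs. Igkc reached 10.97 CPM in MPPs and no more than 0.566 CPM in CLPs, and the summed Ighv entries overlapped between the cell types at 1MO but not at 3MO, where every MPP library was higher.

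Markers of mature B cells and plasma cells were read beside Igkc, and they did not all go one way. Ms4a1 (CD20) was at 0 in 11 of 12 libraries and at 0.0606 CPM in the other, replicate 3 of 1MO MPPs, and Cd40 was at 0.303 CPM in that library and at 0 in the same 11. Other markers on the mature B cell list were higher in MPPs at 1MO without overlap, though none of those tested was called and Cr2 did not pass the filter. Fcer2a (CD23) was at 0.866 to 1.59 CPM in 1MO MPPs and 0 to 0.273 CPM in 1MO CLPs, and Cr2 (CD21) was at 0.364 to 2.79 CPM in 1MO MPPs and at 0 in 1MO CLPs. H2-Ab1, an MHC class II gene, was at 7.88 to 10.5 CPM in 1MO MPPs and 4.72 to 5.22 CPM in 1MO CLPs, and at 14.6 to 21.7 CPM in 3MO MPPs and 7.22 to 13.1 CPM in 3MO CLPs (edgeR adjusted p = 0.19 and 0.20). The summed level of the 10 mature B cell markers was 139 to 207 CPM in 1MO MPPs and 169 to 185 CPM in 3MO MPPs, beside 202 to 216 CPM in 1MO CLPs and 175 to 221 CPM in 3MO CLPs, and Cd37 alone made up 112 to 192 CPM of it. Ighd and Cd22, which are on the same list, went the other way: Ighd was called higher in CLPs at both ages and Cd22 at 3MO.

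The summed level of the 8 plasma cell markers was lower in every MPP library than in every CLP library of the same age, at 68.9 to 97.6 CPM in 1MO MPPs, 107 to 188 CPM in 1MO CLPs, 86.8 to 121 CPM in 3MO MPPs and 143 to 159 CPM in 3MO CLPs. That sum was mostly Sdc1 (syndecan-1), which was called higher in CLPs at both ages, and Xbp1. Over Jchain, Prdm1, Mzb1, Tnfrsf17 and Derl3 alone, a subset chosen with values known, the order at 3MO was the opposite, with 5.12 to 12.55 CPM in MPPs and 0 to 3.64 CPM in CLPs, and at 1MO the ranges overlapped, with 4.83 to 8.20 CPM in MPPs and 6.35 to 9.18 CPM in CLPs. Tnfrsf17 (BCMA) was at 0 in all 6 MPP libraries and at no more than 0.190 CPM in CLPs. The part of such cells in the Igkc result was not tested.

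The signaling pair behaved unequally. Cd79a (chr7:24897381-24902197, plus strand), the Igα gene, was at 3.34, 1.85 and 5.65 CPM in 1MO CLPs and at 0, 0.981 and 0.315 CPM in 3MO CLPs. In MPPs it was at 0, 0.217 and 0.122 CPM at 1MO and at 0, 0 and 0.636 CPM at 3MO. Every 1MO CLP library was above every other library. The difference between CLPs and MPPs at 1MO was 4.93 on the log2 scale (standard error 1.82), which edgeR did not call (adjusted p = 0.16). DESeq2 called it (adjusted p = 0.025), as did edgeR on the 6 libraries of 1MO alone (adjusted p = 0.020). The age difference in CLPs was -2.97 (standard error 1.61, 95% interval from -6.39 to 0.45, edgeR adjusted p = 0.89), and DESeq2 gave an adjusted p of 0.67. In MPPs the age difference of 0.96 went to -3.69 without replicate 3 of 3MO MPPs, the one 3MO MPP library with a count.

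Cd79b (chr11:106311341-106314762, minus strand), the Igβ gene, did not differ beyond the spread in any comparison. It was at 10.5, 19.3 and 17.7 CPM in 1MO CLPs, 10.5, 15.8 and 14.8 CPM in 3MO CLPs, 12.2, 16.4 and 17.2 CPM in 1MO MPPs and 6.11, 12.4 and 18.7 CPM in 3MO MPPs. All 4 groups overlapped. The log2 fold change between CLPs and MPPs was 0.05 at 1MO, with a 95% interval from -0.78 to 0.88, and 0.14 at 3MO, with an interval from -0.69 to 0.97. The age difference was -0.21 in CLPs (interval from -1.04 to 0.62) and -0.30 in MPPs (interval from -1.13 to 0.54).

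Blnk separated the cell types most clearly. The gene lies at chr19:40928927-40994535 on the minus strand. Blnk was at 79.3, 92.0 and 97.7 CPM in 1MO CLPs and at 99.7, 93.7 and 119 CPM in 3MO CLPs, against 3.39, 5.15 and 3.63 CPM in 1MO MPPs and 6.23, 7.26 and 6.44 CPM in 3MO MPPs. The ratio of the means was 22.1 at 1MO and 15.7 at 3MO. Blnk was higher in CLPs by 4.48 on the log2 scale at 1MO (standard error 0.24, edgeR adjusted p = 3.56e-08) and by 3.97 at 3MO (standard error 0.23, edgeR adjusted p = 1.25e-07). Within MPPs, the 3 libraries of 3MO were above the 3 of 1MO, with a log2 fold change of 0.73 (standard error 0.23, unadjusted p = 0.0053), which did not pass after adjustment (edgeR adjusted p = 1). In CLPs the age difference was 0.22, with a 95% interval from -0.21 to 0.64.

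**Figure D2:**
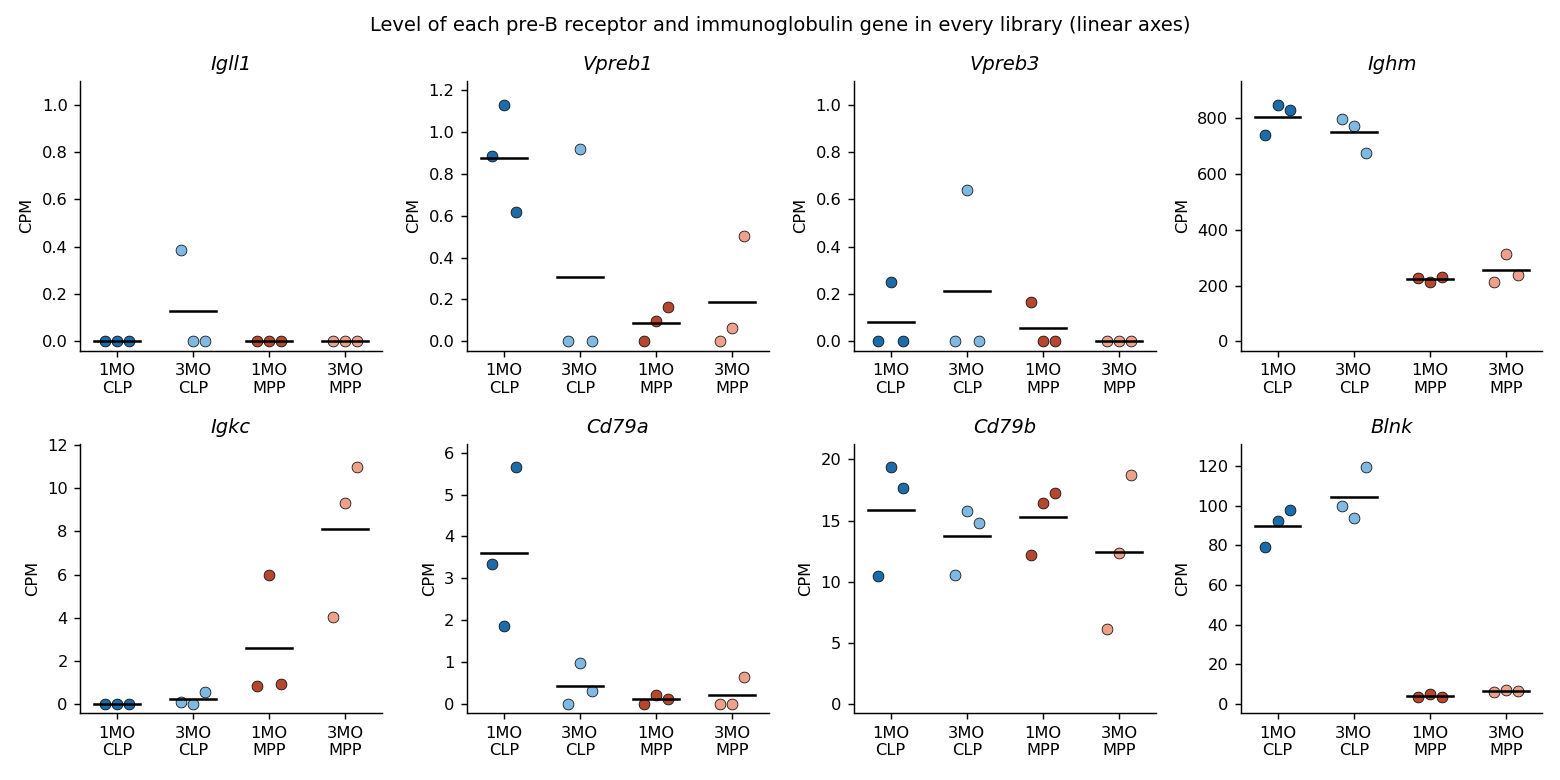
Level of each of the 8 genes in CPM (linear axes) in the 4 groups; each point is 1 library and each horizontal line the mean of 3. Ighm and Blnk were higher in all CLP libraries than in all MPP libraries, Igkc was higher in MPPs, Cd79a was highest in the 3 libraries of 1MO CLPs, and Cd79b overlapped in all groups.

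Some markers of plasmacytoid dendritic cells were also higher in CLPs. Of 9 tested, 5 rose at 1MO and 3 at 3MO, with none lower, while 2.57% and 2.73% of all genes tested rose. The summed level of the 10 genes was 859 to 1006 CPM in 1MO CLPs, 737 to 878 CPM in 3MO CLPs, 464 to 537 CPM in 1MO MPPs and 393 to 641 CPM in 3MO MPPs. Tcf4 made up most of this sum, with means of 749 CPM in 1MO CLPs, 677 CPM in 3MO CLPs, 436 CPM in 1MO MPPs and 469 CPM in 3MO MPPs. Siglech, a receptor of these cells, was at 69.3 ± 6.8 CPM (SD, n = 3) in 1MO CLPs and 3.10 ± 1.39 CPM (SD, n = 3) in 1MO MPPs, and Cox6a2 at 27.3 ± 6.7 and 1.12 ± 0.46 CPM (SD, n = 3). The part of these markers' cells in the Blnk and Ighm differences was not tested.

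Levels were also divided by the length of the union of annotated exons in kilobases. That union can be longer than the transcripts present, so genes are set side by side only roughly. The order of the mean levels differed between groups. In 1MO CLPs it was Ighm (428 CPM per kilobase), Blnk (15.0), Cd79b (11.1), Cd79a (2.48) and Vpreb1 (0.731), with the other members below 0.1. In 3MO MPPs it was Ighm (135 CPM per kilobase), Igkc (15.2), Cd79b (8.67) and Blnk (1.11), with the rest below 0.16. In 1MO MPPs Cd79b (10.7) was above Igkc (4.85), in the means and in each library. Igkc was above Cd79b in each of the 3MO MPP libraries, at 7.62 against 4.27, 17.5 against 8.64 and 20.6 against 13.1 CPM per kilobase, although the ranges of the genes overlapped across libraries. Blnk was above Cd79b in each of the 1MO CLP libraries, and their ranges overlapped as well. No test of these orders was made.

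Counted over the 6 members tested, 3 differed between CLPs and MPPs at 1MO and the same 3 at 3MO: Ighm and Blnk were higher in CLPs and Igkc was lower. Among all 13367 genes tested, 5.38% differed at 1MO (2.57% higher and 2.81% lower in CLPs) and 6.07% at 3MO (2.73% higher and 3.34% lower). Groups that did not overlap in CPM were seen for 5 members at 1MO, where 24.9% of all tested genes were so, and for 3 at 3MO, where the share was 21.8%. With age, 0 members were called in either cell type by edgeR and 0 by DESeq2, and 1 in each had an unadjusted p under 0.05 (Igkc in CLPs and Blnk in MPPs). Of all genes tested, 5.90% in CLPs and 3.48% in MPPs had an unadjusted p under 0.05, and 0.0748% and 0.0224% were called after adjustment. Groups of different age did not overlap for 1 member in CLPs (Cd79a) and 1 in MPPs (Blnk), against 10.6% and 8.61% of all tested genes. The interaction of age and cell type called 0 members by edgeR or DESeq2, with 0 at an unadjusted p under 0.05, and 0% of all genes by edgeR. The comparisons share groups, so their counts are not independent.

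**Figure D3:**
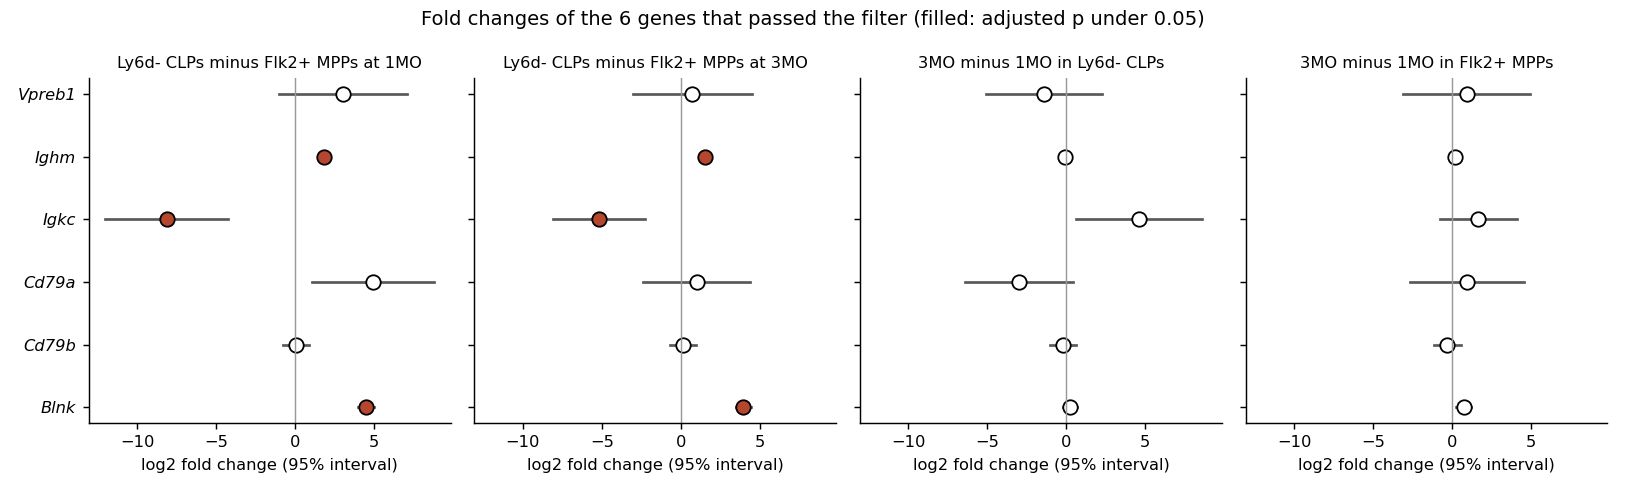
Log2 fold change with its 95% interval for the 6 genes tested, in each of 4 comparisons; filled points have an edgeR adjusted p under 0.05. Ighm, Igkc and Blnk are filled in both comparisons of CLPs with MPPs, and no gene is filled in either comparison of ages, where the intervals of Ighm, Cd79b and Blnk are narrow and those of Igkc, Cd79a and Vpreb1 are wide.

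Most genes that relay the receptor's signal were not called, though most estimates had the sign of Blnk. Of 31 signal genes tested, 2 rose and 1 fell in CLPs relative to MPPs at 1MO, and 7 rose and 1 fell at 3MO. Over all genes tested, 2.57% rose and 2.81% fell at 1MO, and 2.73% and 3.34% at 3MO. Estimates were positive for 25 of the 31 at 1MO and 23 at 3MO. Groups did not overlap for 15 higher and 3 lower genes at 1MO, and for 15 and 4 at 3MO. The share over all genes, in either direction, was 24.9% and 21.8%. The median log2 fold change of the list was 0.32 at 1MO and 0.49 at 3MO, beside -0.02 and -0.03 over all genes tested. Blk, a Src-family kinase of B cells, was at 18.6, 13.4 and 18.3 CPM in 1MO CLPs and at 0, 0 and 0.0961 CPM in 1MO MPPs (edgeR adjusted p = 0.00043), and with so few counts in MPPs the fitted size of the difference depends on the prior count. Dapp1, a PI3-kinase-dependent adaptor, was lower in CLPs, by log2 fold changes of -1.38 at 1MO and -1.27 at 3MO (edgeR adjusted p = 0.00021 and 0.00051). Inpp5d, the SHIP1 phosphatase that limits receptor signals, was higher in CLPs at 1MO by 0.74 (edgeR adjusted p = 0.018), and its adjusted p reached 0.055 to 0.092 on leaving out replicate 2 of 1MO CLPs or any 1 of the 1MO MPP libraries. At 3MO Pik3cd, the PI3-kinase δ subunit, was higher in CLPs by 0.86 on the log2 scale (edgeR adjusted p = 0.0059). Cd22, an inhibitory coreceptor, was called higher at 3MO (edgeR adjusted p = 0.012), at 3.14 to 23.0 CPM in CLPs and 0 to 0.455 CPM in MPPs. With age, 0 of the 31 were called in CLPs or in MPPs.

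Of 15 B lineage transcription factors, 5 rose in CLPs at 1MO and 5 at 3MO, and none fell. Over all genes tested, 2.57% rose at 1MO and 2.73% at 3MO. The median log2 fold change was 1.09 at 1MO and 0.83 at 3MO. Ebf1, the factor that opens the B lineage program, was at 76.3, 52.9 and 61.9 CPM in 1MO CLPs and at 38.3, 20.8 and 26.2 CPM in 3MO CLPs, against 0.175 to 0.834 CPM in 1MO MPPs and 0.922 to 2.82 CPM in 3MO MPPs. Ebf1 was higher in CLPs by 7.14 on the log2 scale at 1MO and by 3.92 at 3MO (edgeR adjusted p = 1.73e-06 and 7.58e-05). Its age difference in CLPs was -1.17 with groups that did not overlap, and it did not pass (edgeR adjusted p = 0.67). In MPPs it was 2.06, again with groups that did not overlap (edgeR adjusted p = 0.66, DESeq2 adjusted p = 0.049), and its age differences in the cell types were -3.22 apart, CLPs minus MPPs (edgeR adjusted p = 0.82, DESeq2 adjusted p = 0.0055). Irf8, a factor of B and dendritic lineages, was higher by 3.58 and 3.09 (edgeR adjusted p = 1.49e-07 and 8.92e-07), and Ikzf1 by 0.83 at each age (edgeR adjusted p = 0.0013 and 0.0015). With age, edgeR called 0 of 15 factors in either cell type, while DESeq2 called Ebf1 in MPPs, and 14 of 15 estimates in CLPs were negative, with a median of -0.38 beside -0.01 over all genes. Pax5, which locks B cell identity, was at 17.5, 7.56 and 28.9 CPM in 1MO CLPs and at 12.6, 0.502 and 1.33 CPM in 3MO CLPs.

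The 3 recombination genes, Rag1, Rag2 and Dntt, rose in CLPs at both ages. Rag1, the recombinase subunit, fell with age in CLPs from 266, 197 and 326 CPM to 79.8, 83.9 and 126 CPM, a log2 fold change of -1.44 (edgeR adjusted p = 0.043). The Rag1 age call was lost without replicate 1 (adjusted p = 0.13) or 3 (0.24) of 1MO CLPs, without replicate 1 (0.20) or 2 (0.31) of 3MO CLPs, with at least 10 counts in every library (0.058) and on the 6 CLP libraries alone (0.11). Its sign held in each of these fits.

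**Figure D4:**
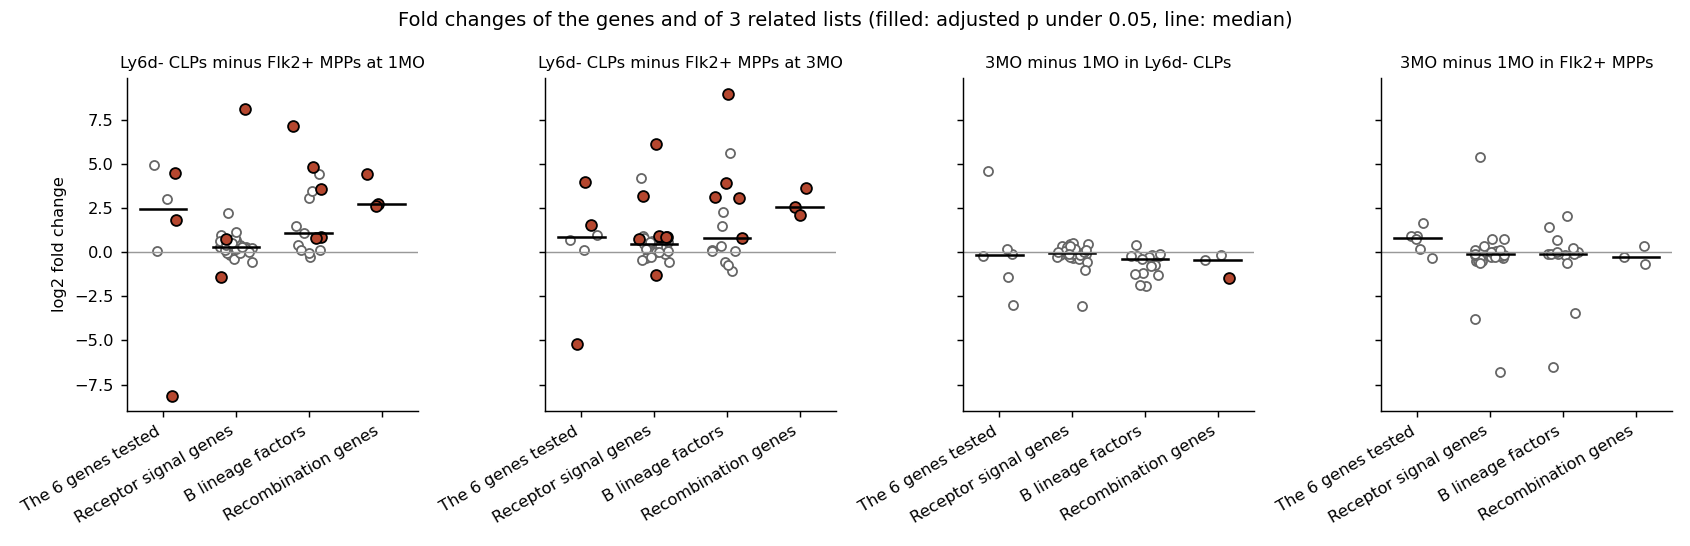
Log2 fold changes in 4 comparisons for the 6 genes tested and for 3 related lists, the 31 receptor signal genes, 15 B lineage factors and 3 recombination genes; each point is 1 gene, filled where the edgeR adjusted p is under 0.05, and each line is the median. Igkc is the lowest point among the 6 genes in both comparisons of CLPs with MPPs, and Rag1 is the single filled point in the comparisons of ages.

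Other cell types were read from their markers beside these results. Committed pro-B and pre-B cell markers, other than the members, numbered 14, and the summed level was 1468 to 1830 CPM in 1MO CLPs and 1450 to 1547 CPM in 3MO CLPs, beside 1324 to 1355 CPM in 1MO MPPs and 1205 to 1492 CPM in 3MO MPPs. Sox4 and Spn, which are not specific to B cell precursors, made up most of this sum, with means of 961 and 444 CPM in 1MO CLPs and 709 and 435 CPM in 1MO MPPs. Of the 12 tested, 1 was called higher in CLPs at 1MO (Ebf1) and 2 at 3MO (Ebf1 and Pax5). Bone stroma genes were read beside Cd79a, whose age difference in CLPs was not called. Their summed level was 213 to 599 CPM in 1MO CLPs, mostly from Col1a1 and Col1a2 (means of 223 and 100 CPM), and 3.52 to 10.2 CPM in 3MO CLPs. In MPPs it was 11.6 to 80.9 CPM at 1MO and 5.88 to 14.8 CPM at 3MO. The part of stromal RNA in the Cd79a values was not tested.

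The genes whose pattern was most like that of a member were found by the root mean square difference of mean-centred log2 CPM over the 12 libraries, among 13367 genes. Nearest to Ighm were Ctr9, Hdac9 and Ptger4, at differences of 0.22 for each. Nearest to Blnk were Mpeg1 (0.42), Cmah (0.46) and Irf8 (0.50), and nearest to Cd79b were Bsg, Eif5a and Pebp1 (0.16 to 0.17). For the sparse members the differences were larger, with Shtn1, E430002N23Rik and Slc16a12 at 0.72 to 0.95 for Igkc, Gm29050, Slc41a2 and Myzap at 0.88 to 0.96 for Cd79a, and Gm48876, Trappc2l and Gm16124 at 0.72 to 0.76 for Vpreb1. The difference was not scaled to the spread of a member's own profile, so it does not rank how close the matches are. That spread (SD) was 0.47 for Cd79b, 0.91 for Ighm, 2.21 for Blnk, 2.49 for Igkc, 1.89 for Cd79a and 1.27 for Vpreb1.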

How the data were processed

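RNA of 12 libraries was measured by bulk sequencing of polyadenylated RNA. Estimated counts per gene, length-scaled by the authors and not adjusted for depth, were deposited for the whole series in a single table. Their processing notes name FastQC, UMI-tools, Trim Galore, STAR, Salmon, DESeq2 and mm10; the annotation and strand setting are not given in the sources used here. Coordinates are those of GENCODE M21 (GRCm38) and promoter windows those of RefSeq (GRCm38.p6).

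Estimated counts were rounded and tested with edgeR 4.0.16 in R 4.3.3: filterByExpr, TMM, and the quasi-likelihood test in one fit of 4 groups, with Benjamini-Hochberg adjustment over 13367 genes and a threshold of 0.05. In simulated counts for these genes, this recovered 30.5% of 200 genes changed 3-fold for the interaction and 55% to 57.5% for the other comparisons. Alternatives were DESeq2 1.42.0 (size factors, Wald test), other filters, replicate blocks, subsets of libraries and other library totals; for list genes they were added after the data were seen. Python 3.11.15 with Biopython 1.88 aligned the coding sequences.

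The members and gene lists were chosen with earlier results of these data known. All members are described; of each list, at most the 3 called genes with the smallest p per comparison are named, and other genes were chosen after their values were seen. Replicates in every group differed by more than sampling noise (chi-square per gene of 17.6 to 85.6).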

Additional observations from a re-analysis of the deposited data

How the results depend on the processing

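Ighm and Blnk stayed past the threshold in CLPs against MPPs in all 52 alternative fits, at log2 fold changes of 1.45 to 1.91 and 3.86 to 4.68. Of 387 log2 fold changes of members under alternatives, 363 kept their direction and side of the threshold. Igkc lost its call in 7 of 12 fits with a library left out and in none of the other fits that kept it. The filter of at least 10 counts in every library removed it and gave no value. Its log2 fold changes were -8.57 to -6.60 at 1MO and -7.38 to -4.55 at 3MO. Cd79a at 1MO became significant with DESeq2 (5.05) and on the 6 libraries alone (4.97). Signs turned, always without significance, on leaving out a library: the age difference in MPPs ranged from -1.15 to 1.77 for Vpreb1, -3.69 to 1.64 for Cd79a and -0.72 to 0.025 for Cd79b, the interaction from -5.33 to 0.71 for Cd79a and -0.23 to 0.51 for Cd79b, the difference of CLPs from MPPs at 1MO from -0.12 to 0.28 for Cd79b, and at 3MO from -4.44 to 2.78 for Vpreb1, -0.40 to 5.64 for Cd79a and -0.18 to 0.56 for Cd79b.

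The number of members called was 0 with age and for the interaction in every fit, and 2 to 3 with a library left out for CLPs against MPPs at either age. Over all genes, DESeq2 called 65 for age in CLPs, 35 for age in MPPs, 7 for the interaction, 1230 at 1MO and 1427 at 3MO, against 10, 3, 0, 719 and 812 by edgeR. Keeping every gene with a count gave 46, 26 and 6 for the first 3, at least 10 counts in every library gave 4 and 1 for the ages, and the 6 libraries compared gave 4 for age in CLPs and 435 at 3MO. Leaving out a library gave 6 to 10, 3 to 5, 0 to 1, 460 to 623 and 553 to 669. The cause of these changes was not tested. Same-numbered libraries correlated at -0.034 to 0.21. Different-numbered libraries were not set beside them, so these values cannot decide whether the numbers pair the samples. The main fit did not pair them. The study's methods speak of independent experiments and of sorting both cell types from each mouse, without tying a number to a mouse or experiment. Summed hemoglobin genes were higher in replicate 3 of every group, at 79.1 to 125 CPM, than in replicates 1 and 2, at 8.97 to 25.0 CPM. The replicate block called 3 members at each age, 915 genes at 1MO and 1007 at 3MO. The block of age and number turned Vpreb1 at 3MO to -0.031. Other library totals left 63 of 64 group levels within 1 SD, and moved Ighm in 1MO MPPs to 234 CPM with immunoglobulin, hemoglobin and mitochondrial genes left out of the total. Of 279 fits of the named list genes, 14 lost a call and 0 turned sign. Depth limits what can be said of Igll1, Vpreb1, Vpreb3, Cd79a and Igkc in CLPs, whose values rest on few counts, so that differences below about the limit of 3 counts were not detectable.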

Other observations

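Of the immunoglobulin constant genes outside the 8 described, Ighg2c was at 3.11 and 3.57 CPM in replicates 2 and 3 of 3MO MPPs and at 0 in the 10 other libraries. Iglc2 and Iglc3, constant genes of the λ light chain, were at 0 in every library, while Iglc1, the other λ constant gene on the list, was at 1.27, 0.0721 and 0.0718 CPM in 3MO MPPs and at 0 elsewhere, and the Iglv entries together reached no more than 0.983 CPM, in 3MO MPPs. The summed granule genes S100a8, S100a9, Ngp, Camp and Ltf were at 51.5, 122 and 151 CPM in 3MO MPPs and at 30.2, 40.6 and 21.3 CPM in 1MO MPPs, and at 32.5, 101 and 72.3 CPM in 3MO CLPs and 31.0, 27.7 and 29.1 CPM in 1MO CLPs. Mzb1, a chaperone gene of B and plasma cells, was at 3.78, 3.49 and 6.86 CPM in 1MO CLPs and at 0.235, 0 and 0.922 CPM in 3MO CLPs (edgeR adjusted p = 0.82).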
